A study of Mus musculus with 6 samples.

Results

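Long intergenic noncoding RNA (lincRNA) promoters were examined as the H3K27ac peaks that lay within 1 kb of the annotated start of a lincRNA transcript and more than 5 kb from the start of any transcript of a protein-coding gene. Of the 31131 H3K27ac peaks, 442 (1.42%) met this rule, at 395 of the 5854 lincRNA genes in GENCODE vM21 on GRCm38. A further 321 peaks lay near a lincRNA start but within 5 kb of a coding start and were left out. Of the 442 peaks, 50 also lay within 1 kb of the start of a gene of another type (mostly processed transcripts, pseudogenes and small RNAs), and 45 genes had more than 1 peak. H3K27ac ChIP-seq was carried out on O4AID ESCs, mouse ESCs of strain 129SV and the ZHBT line (Oct4-/-; TetOFF Oct4; CAG Oct4AID; CAG Tir1), with 3 uninduced libraries and 3 libraries from cells given 500 μM of the auxin IAA for 1.5 h. All cells were held in doxycycline, which keeps the wild-type Oct4 transgene off, and in N2B27 with PD03, Chiron and LIF, so the only OCT4 protein in both conditions was a fusion to an auxin-inducible degron driven by the CAG promoter, with the plant receptor Tir1 also on the CAG promoter. The libraries are separate immunoprecipitations, and the p-values measure the spread between them, which may in part be technical. A fall in the mark in fewer cells and a smaller amount of the mark in each cell cannot be told apart in these bulk samples. All 8 ESC marker genes checked (among them Nanog, Sox2, Esrrb and Klf4) had an H3K27ac peak above threshold at the promoter, against 1 of 8 markers of other lineages (Pax6).

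H3K27ac is placed by the acetyltransferases p300 and CBP on the histones beside active promoters and enhancers, and transcription factors such as OCT4 recruit these enzymes. Many lincRNAs of ESCs are transcribed from sites that also act as enhancers of a neighbouring gene, so a lincRNA promoter can carry features of both classes. The lincRNAs best known in these cells include the Platr genes (pluripotency-associated transcripts), Lncenc1 (a transcript of naive ESCs), Eprn (Ephemeron) and Halr1, which lies beside the Hoxa cluster.

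H3K27ac is given in RPKM, the reads in a peak scaled to its length and to the size of the library. The OCT4 mark denotes an H3K27ac peak that lies near (at most 1 kb from) a site bound by OCT4 in published ChIP-seq data of V6.5 ESCs, another line. Of the 442 lincRNA promoter peaks, 399 reached 0.5 RPKM in the mean of either condition and were tested, 102 with the OCT4 mark and 297 without it. Among them, 239 had the transcript start inside the peak. Over all 442 peaks, 339 touched an exon of the lincRNA gene, 36 lay within an intron and 67 lay upstream of it. The nearest coding start was a median of 40080 bp away. The libraries held between 31634480 and 39547452 reads, and the median tested lincRNA promoter peak held 78, 62 and 77 reads in the uninduced and 52, 51 and 40 reads in the IAA libraries.

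The sequences at 8 of these promoters are shown because they belong to the largest falls in H3K27ac and to the ESC-linked list. Each runs 5′ to 3′ along the transcript from 250 bases before its annotated start, with the 50 bases from the start onward in capitals, read from GRCm38. With an OCT4 mark at the peak, Gm29243 lies at chr8:34216609-34216908 on the plus strand, Gm12510 at chr4:55465765-55466064 on the minus strand, Platr11 at chr9:118406050-118406349 on the minus strand, Halr1 at chr6:52102753-52103052 on the plus strand and Platr10 at chr3:75655682-75655981 on the minus strand.
Gm29243: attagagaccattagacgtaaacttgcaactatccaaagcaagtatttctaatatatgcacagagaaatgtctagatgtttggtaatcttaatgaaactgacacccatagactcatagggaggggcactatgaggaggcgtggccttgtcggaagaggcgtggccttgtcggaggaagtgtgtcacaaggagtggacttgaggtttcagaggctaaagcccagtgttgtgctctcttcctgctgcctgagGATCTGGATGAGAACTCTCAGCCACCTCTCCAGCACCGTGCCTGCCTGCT
Gm12510: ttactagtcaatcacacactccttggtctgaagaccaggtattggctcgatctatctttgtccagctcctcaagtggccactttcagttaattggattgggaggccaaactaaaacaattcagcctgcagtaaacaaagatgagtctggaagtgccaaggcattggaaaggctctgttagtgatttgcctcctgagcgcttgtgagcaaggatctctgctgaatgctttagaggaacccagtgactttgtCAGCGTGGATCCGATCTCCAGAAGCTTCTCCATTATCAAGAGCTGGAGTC
Platr11: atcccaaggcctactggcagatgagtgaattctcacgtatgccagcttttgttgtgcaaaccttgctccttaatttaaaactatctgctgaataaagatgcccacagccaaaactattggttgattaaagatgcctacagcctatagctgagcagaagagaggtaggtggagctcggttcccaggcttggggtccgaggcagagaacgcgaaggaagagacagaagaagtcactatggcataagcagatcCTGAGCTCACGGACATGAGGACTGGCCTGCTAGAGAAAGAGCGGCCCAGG
Halr1: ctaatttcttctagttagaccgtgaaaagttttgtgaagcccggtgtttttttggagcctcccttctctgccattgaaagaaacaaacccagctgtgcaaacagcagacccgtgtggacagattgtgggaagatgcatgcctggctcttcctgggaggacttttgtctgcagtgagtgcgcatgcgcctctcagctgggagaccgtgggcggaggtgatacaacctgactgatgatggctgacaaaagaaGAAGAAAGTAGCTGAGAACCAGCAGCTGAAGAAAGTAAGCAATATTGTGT
Platr10: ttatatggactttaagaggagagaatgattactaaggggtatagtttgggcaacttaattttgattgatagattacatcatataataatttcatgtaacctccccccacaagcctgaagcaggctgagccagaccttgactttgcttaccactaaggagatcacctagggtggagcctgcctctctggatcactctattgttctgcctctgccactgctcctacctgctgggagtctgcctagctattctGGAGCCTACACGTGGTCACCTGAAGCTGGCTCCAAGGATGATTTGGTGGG

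Without an OCT4 mark at the peak, Gm19705 lies at chr1:136670519-136670818 on the plus strand, Gm10479 at chr12:19292563-19292862 on the plus strand and Gm11211 at chr4:62727488-62727787 on the minus strand.
Gm19705: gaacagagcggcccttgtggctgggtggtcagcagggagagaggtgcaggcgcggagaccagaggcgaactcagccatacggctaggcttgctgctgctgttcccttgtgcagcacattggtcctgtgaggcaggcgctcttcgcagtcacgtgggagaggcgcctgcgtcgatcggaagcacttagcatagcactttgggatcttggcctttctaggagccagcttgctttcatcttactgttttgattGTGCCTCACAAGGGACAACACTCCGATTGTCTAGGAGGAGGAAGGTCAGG
Gm10479: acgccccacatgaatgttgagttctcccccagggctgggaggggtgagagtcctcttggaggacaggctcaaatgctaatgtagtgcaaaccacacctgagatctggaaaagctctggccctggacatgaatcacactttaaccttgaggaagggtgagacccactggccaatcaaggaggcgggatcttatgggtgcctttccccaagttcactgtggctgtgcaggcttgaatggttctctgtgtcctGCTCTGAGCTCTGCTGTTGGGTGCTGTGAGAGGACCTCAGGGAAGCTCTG
Gm11211: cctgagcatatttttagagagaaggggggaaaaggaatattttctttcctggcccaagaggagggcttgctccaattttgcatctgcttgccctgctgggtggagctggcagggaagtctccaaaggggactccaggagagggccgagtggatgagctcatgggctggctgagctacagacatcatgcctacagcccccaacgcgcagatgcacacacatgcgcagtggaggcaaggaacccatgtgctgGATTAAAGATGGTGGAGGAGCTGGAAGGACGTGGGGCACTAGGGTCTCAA

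None of the 8 windows is rich in CpG. They hold between 1 and 13 CpG dinucleotides each, the most at Gm19705. The windows of Gm29243 and Gm12510, and that of Gm19705 for the first of its peaks, lie outside the H3K27ac peak with the large fall. The Gm19705 window lies inside another peak of that gene. By contrast, 207 bases of the Gm11211 window and 192 bases of the Gm10479 window lie inside the peak that fell.

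H3K27ac at lincRNA promoters was lower after IAA, with a share of called peaks close to that of all H3K27ac peaks. By limma, 273 of the 399 tested lincRNA promoter peaks (68.4%) were lower at an adjusted p under 0.05, beside 68.2% of all 26457 tested peaks, and 301 (75.4%) had all 3 IAA values below all 3 uninduced values, beside 71.2% of all tested peaks. None was higher, beside 0.0605% of all tested peaks. The peaks were called on the pooled uninduced libraries, so a site with H3K27ac only after IAA could not be among them. Counts of falls and rises are therefore not on an equal footing. A positive change was seen at 4 lincRNA promoter peaks, and 0 of these had an unadjusted p under 0.05 in limma. The change was negative at 99% of tested lincRNA promoter peaks, beside 97.7% of all tested peaks. The library medians of log2(RPKM + 0.1) over the lincRNA promoters were 1.37, 1.28 and 1.23 in the uninduced and 0.85, 0.79 and 0.55 in the IAA libraries, a difference of the group means of -0.56 (1.29 ± 0.07 against 0.73 ± 0.16, SD, n = 3 each). All 3 IAA libraries lay below the uninduced libraries, and IAA replicate 3 was the lowest. The median change over peaks was -0.55 for the lincRNA promoters and -0.55 for all tested peaks.

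The denominator of RPKM is the whole library, and all peaks shift together when a smaller part of the library lies in peaks. The share of reads in peaks was 6.63% to 7.12% in the uninduced and 4.05% to 5.15% in the IAA libraries, and its part in the falls was not tested. The lincRNA promoters held 1.91% to 1.96% of the reads in peaks in the uninduced and 1.97% to 2.04% in the IAA libraries. When each library was centred on its median tested peak, which removes a shift of -0.55 on the log2 scale, 6 lincRNA promoter peaks were lower and 1 was higher than the median peak, beside 1.97% lower and 0.544% higher of all tested peaks. Changes after centring are called relative changes below.

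**Figure D1:**
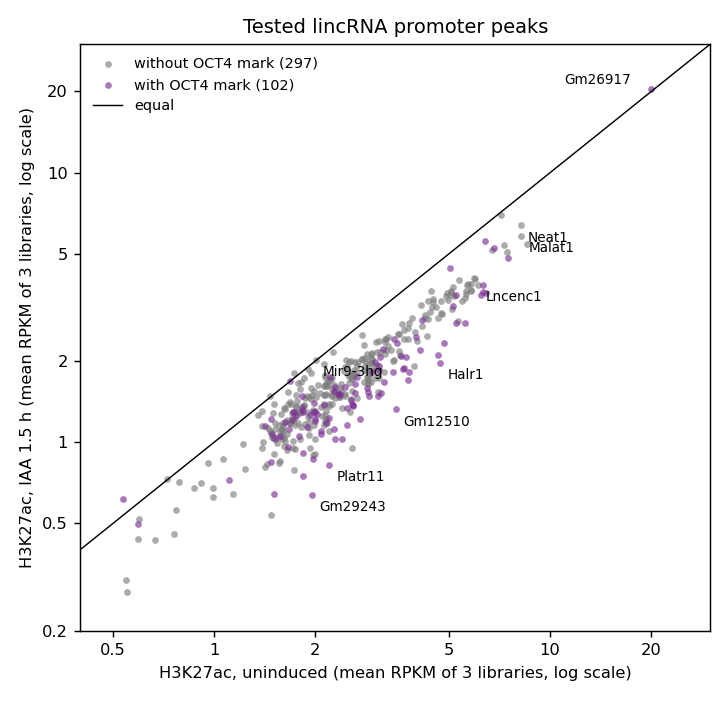
Mean H3K27ac RPKM of the 399 tested lincRNA promoter peaks in uninduced cells (horizontal axis, log scale) and after IAA (vertical axis, log scale), each over 3 libraries. Purple points have an OCT4 mark, grey points have none, and the line marks equal values. Nearly all points lie below the line, and Gm26917 lies on it near 20 RPKM.

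An OCT4 mark went with a larger fall. Of the 102 lincRNA promoter peaks with a mark, 83 (81.4%) were lower by limma, beside 85.2% of all tested peaks with a mark. Of the 297 without a mark, 190 (64.0%) were lower, beside 64.6% of all tested peaks without one. With the mark, the library medians were 1.46, 1.34 and 1.29 in the uninduced and 0.74, 0.63 and 0.55 in the IAA libraries. Without it, they were 1.32, 1.27 and 1.19 in the uninduced and 0.89, 0.83 and 0.55 in the IAA libraries. The marked median was the higher of the pair in each uninduced library and the lower in 2 of the 3 IAA libraries. Within each library, the marked minus the unmarked median was 0.15, 0.06 and 0.10 in the uninduced and -0.15, -0.19 and 0.01 in the IAA libraries, a change of -0.21 with no overlap between the conditions (0.10 ± 0.04 against -0.11 ± 0.10, SD, n = 3). The same difference over all tested peaks changed by -0.21, at coding promoters by -0.20 and at distal peaks by -0.21.

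**Figure D2:**
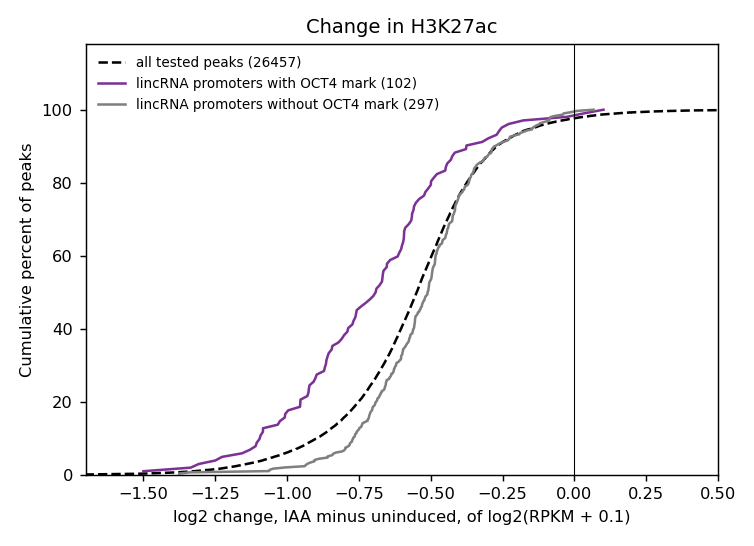
Cumulative percent of peaks (vertical axis) by log2 change, IAA minus uninduced, of log2(RPKM + 0.1) (horizontal axis). The curve of the 102 lincRNA promoters with an OCT4 mark lies to the left of the others, with a median of -0.69, and that of the 297 without a mark, with a median of -0.51, lies close to all 26457 tested peaks.

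All 7 lincRNA promoter peaks that passed after centring carried an OCT4 mark. Of all tested peaks with a mark, 7.55% were lower after centring, against 0.771% lower and 0.61% higher of those without a mark, so that 0 calls among 297 unmarked lincRNA promoters are close to these shares. The 6 lower ones were Gm12510, Halr1, AC116849.2, AV205837, Gm49024 and Platr26, and the higher one was Gm26917. Among the unmarked lincRNA promoter peaks, 9 had a relative fall and 16 a relative rise at an unadjusted p under 0.05 in limma, and none passed the adjustment. The shares of all unmarked tested peaks at this unadjusted threshold are not given here. The 2 counts therefore do not set lincRNA promoters apart. Leaving out a library left between 0 and 9 lower and between 1 and 3 higher lincRNA promoter peaks. The count of lower peaks was 0 without uninduced replicate 1, 0 without uninduced replicate 3, 1 without uninduced replicate 2 and 2 without IAA replicate 1. The shares of all tested peaks in these fits are not given here, so the counts show only that the calls depend on single libraries.

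The lincRNA promoters were compared with the 11823 tested peaks within 1 kb of a coding start and with the 13333 tested distal peaks, which have no annotated start within 1 kb. They lay between these classes in level, with a median uninduced RPKM of 2.29 against 2.89 at coding promoters and 2.15 at distal peaks. In the frequency of the OCT4 mark they stood with distal peaks, at 25.6% of tested lincRNA promoters, 25.8% of distal peaks and 8.04% of coding promoters. Per library, the lincRNA promoter median minus the coding promoter median was -0.25, -0.35 and -0.27 in the uninduced and -0.38, -0.24 and -0.34 in the IAA libraries, so that the conditions overlapped. The lincRNA promoter median minus the distal median was 0.16, 0.10 and 0.06 in the uninduced and 0.12, 0.11 and 0.12 in the IAA libraries, which also overlapped. The difference changed by -0.03 against coding promoters and by 0.01 against distal peaks. Within the marked peaks these changes were -0.01 and 0.01, and within the unmarked peaks 0.01 and 0.01.

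**Figure D3:**
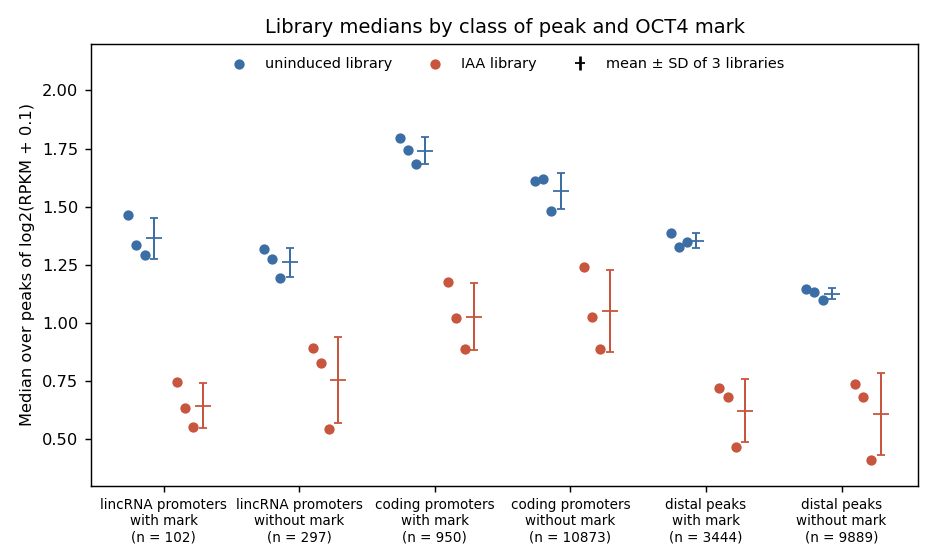
Median over peaks of log2(RPKM + 0.1) in each library (vertical axis) for lincRNA promoters, coding promoters and distal peaks with and without an OCT4 mark (horizontal axis, with the number of peaks). Points are libraries, blue for uninduced and red for IAA, and bars are the mean ± SD of 3 libraries. In each class the IAA libraries lie below the uninduced libraries, and the gap is larger with the mark.

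A lincRNA promoter without a mark can still lie beside a marked H3K27ac peak. Of the 297 unmarked lincRNA promoter peaks, 39 had a marked H3K27ac peak within 10 kb. Of these 39, 35 (89.7%) were lower by limma, with a median change of -0.69. Of the other 258, 155 (60.1%) were lower, with a median change of -0.50. The 39 also had more H3K27ac in uninduced cells, with a median of 3.05 RPKM against 2.16 RPKM, and the part of that level in the calls was not tested. Over all unmarked tested peaks, the same split gave 80.6% lower of 2385 peaks with a marked neighbour and 62.6% of 19410 without. The median changes of these were -0.62 and -0.51.

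H3K27ac was lower at all tested promoters of the ESC-linked lincRNAs. The list held 16 genes with 17 peaks, of which 14 peaks at 13 genes were tested. All 14 were lower by limma, beside 68.2% of all tested peaks and 85.2% of those with a mark, and 13 had no overlap between conditions, beside 71.2% of all tested peaks. The median change was -0.87, beside -0.55 over all tested peaks. Leaving out 1 library cost the call at 4 of the 14, with an adjusted p by limma of up to 0.105 at Eprn (without uninduced replicate 3), 0.116 at Platr22 (without uninduced replicate 1), 0.0629 at Platr4 (without uninduced replicate 1) and 0.051 at Platr1 (without uninduced replicate 1). The relative change had a median of -0.32, and 2 of the 14, Halr1 and Platr26, passed after centring. The 8 peaks with an OCT4 mark had a median change of -1.01, and the 6 without had a median of -0.69. The list was chosen by name with earlier results of these libraries known and is not independent evidence of a direction.

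Halr1 (chr6:52103021-52106035) had the lowest adjusted p of the ESC-linked promoters. Its peak begins 18 bp past the transcript start, in exon sequence, and its H3K27ac was 4.73, 4.55 and 4.83 RPKM in the uninduced and 2.16, 2.05 and 1.68 RPKM in the IAA libraries. All 3 IAA values were well below the uninduced values, a log2 change of -1.23 ± 0.16 (SE, adjusted p = 4.17e-05 by limma) and a relative change of -0.67 (adjusted p = 0.008). Platr26 (chr2:71719288-71720346, in exon sequence, 25270 bp from the start of Itga6) had 5.11, 4.87 and 4.52 RPKM in the uninduced and 2.41, 2.54 and 2.05 RPKM in the IAA libraries, a log2 change of -1.02 ± 0.16 (SE, adjusted p = 0.000147). H3K27ac there was about as high as at Halr1, and its relative change of -0.47 also passed (adjusted p = 0.0384).

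Platr11 (chr9:118405390-118406190, over the first bases of its transcript) showed the largest fall of the list. It had 2.09, 2.65 and 1.87 RPKM in the uninduced and 0.879, 0.727 and 0.866 RPKM in the IAA libraries, a log2 change of -1.31 ± 0.22 (SE, adjusted p = 0.000242). Its relative change of -0.75 missed the threshold (adjusted p = 0.0702). The spread of the uninduced values was wider here than at Halr1.

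The other ESC-linked promoters with a mark also fell. Platr10 on chromosome 3 went from 2.09, 1.74 and 2.07 RPKM to 0.878, 0.797 and 0.933 RPKM, and Platr7 on chromosome 10 from 3.62, 3.47 and 3.93 RPKM to 1.96, 1.84 and 1.86 RPKM. Platr19, on chromosome 12 near Mycn, had 2 marked peaks 265 bp apart. The one over its start changed by -0.82 and the one inside its intron by -0.995 on the log2 scale. Eprn, whose product Ephemeron acts in the exit from naive pluripotency, had 1.90, 1.64 and 2.24 RPKM in the uninduced and 1.07, 1.66 and 1.06 RPKM in the IAA libraries. IAA replicate 2 thus reached the lowest uninduced value, and Eprn was the sole ESC-linked promoter whose conditions overlapped (log2 change -0.59 ± 0.22, SE, adjusted p = 0.0259).

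Among the ESC-linked promoters without a mark, Lncenc1 on chromosome 13 carried the most H3K27ac, with 6.24, 5.89 and 6.21 RPKM in the uninduced and 3.89, 4.19 and 3.43 RPKM in the IAA libraries. Its fall of -0.66 ± 0.15 (SE, adjusted p = 0.0022) was close to that of the median peak, with a relative change of -0.11. Platr28 on chromosome 7 fell more, from 1.99, 2.33 and 1.58 RPKM to 0.820, 1.13 and 0.734 RPKM (-1.06 ± 0.23, SE, adjusted p = 0.00168), and a marked H3K27ac peak lies 4771 bp from it. Platr1 and Platr27 changed by -0.78 and -0.73. Platr22 and Platr4 changed by -0.51 each, and their relative changes were 0.04 and 0.05, so both lost the direction of their fall after centring. The 3 ESC-linked peaks below threshold, at Platr2, Platr13 and Platr15, held at most 0.341 RPKM in any library and consisted of repeated sequence over 87.0% to 98.3% of their 32-base words.

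**Figure D4:**
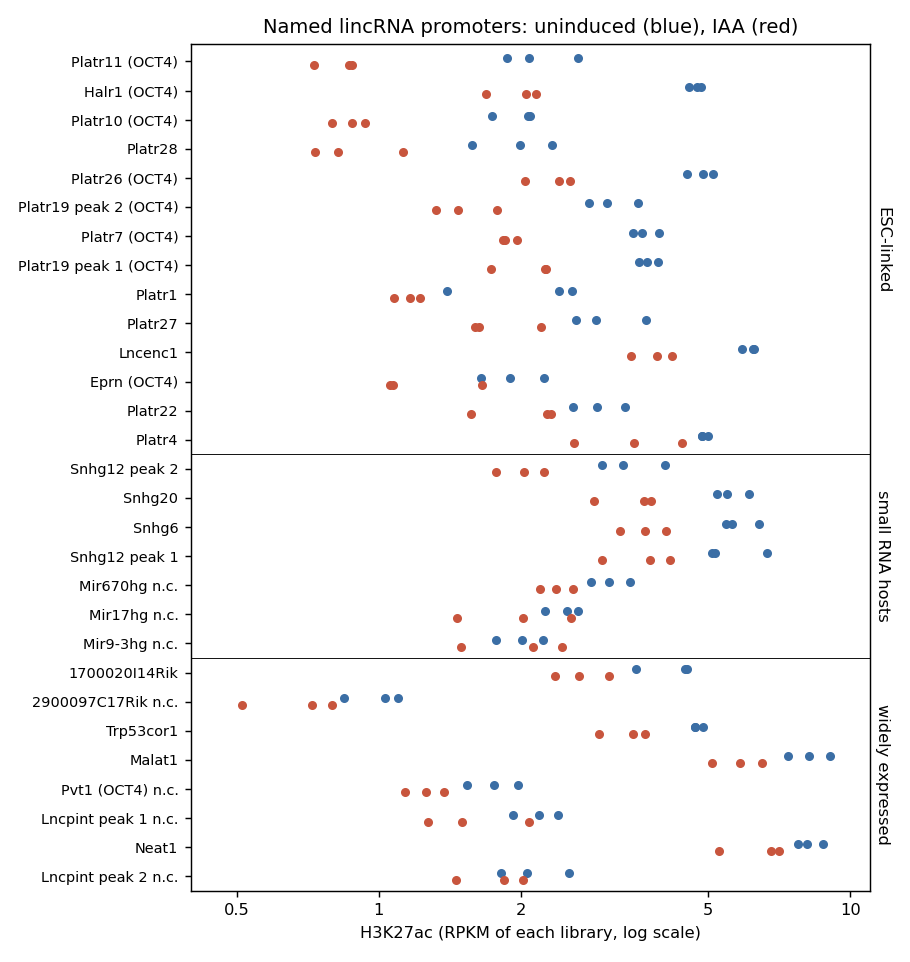
H3K27ac RPKM of each library (horizontal axis, log scale) at the tested promoter peaks of the ESC-linked, small RNA host and widely expressed lincRNA lists (vertical axis). Blue points are uninduced and red points IAA libraries, OCT4 denotes the mark and n.c. a peak not called lower by limma. The ESC-linked promoters are all called, and the gap between conditions is widest at Platr11 and Halr1 and closes at Mir9-3hg.

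The lincRNAs that host small RNAs were examined next. The list held 6 genes with 7 tested peaks, none with an OCT4 mark, and 4 were lower by limma, a share close to the 64.6% of all tested peaks without a mark. The median change over the list was -0.62. The 4 were the peaks of Snhg6, Snhg12 (2 peaks) and Snhg20, genes whose introns carry small nucleolar RNAs. Snhg20 had 6.09, 5.46 and 5.23 RPKM in the uninduced and 3.65, 3.78 and 2.86 RPKM in the IAA libraries (-0.70 ± 0.16, SE, adjusted p = 0.00233). Snhg6 had 6.40, 5.62 and 5.45 RPKM in the uninduced and 4.08, 3.25 and 3.67 RPKM in the IAA libraries (-0.66 ± 0.15, SE, adjusted p = 0.00282). The conditions did not overlap at any of the 4, and their relative changes lay between -0.18 and -0.07.

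None of the 3 microRNA host promoters was called by limma at an adjusted p under 0.05. Mir17hg, the host of the miR-17-92 cluster, had 2.64, 2.50 and 2.25 RPKM in the uninduced and 2.56, 2.02 and 1.46 RPKM in the IAA libraries (-0.31 ± 0.20, SE, adjusted p = 0.154). Mir670hg had 3.08, 3.41 and 2.82 RPKM in the uninduced and 2.19, 2.58 and 2.38 RPKM in the IAA libraries (-0.37 ± 0.16, SE, adjusted p = 0.0538). Mir9-3hg, a host of the neural miR-9, had 2.23, 2.01 and 1.77 RPKM in the uninduced and 2.44, 1.49 and 2.12 RPKM in the IAA libraries (-0.01 ± 0.20, SE, adjusted p = 0.957). The conditions overlapped at Mir17hg and Mir9-3hg and not at Mir670hg. The difference between the snoRNA hosts and the microRNA hosts was not tested.

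The widely expressed lincRNAs included Malat1 and Neat1, which had some of the highest H3K27ac values of all lincRNA promoters. The list held 7 genes with 8 tested peaks, of which 4 were lower by limma, beside 68.2% of all tested peaks, with a median change of -0.47 and a median relative change of 0.08. Malat1, whose RNA gathers in nuclear speckles, had 9.07, 8.17 and 7.38 RPKM in the uninduced and 6.5, 5.85 and 5.09 RPKM in the IAA libraries (-0.49 ± 0.15, SE, adjusted p = 0.0107). Neat1, the scaffold of paraspeckles and a neighbour of Malat1 on chromosome 19, had 8.74, 8.08 and 7.74 RPKM in the uninduced and 6.8, 7.07 and 5.27 RPKM in the IAA libraries (-0.36 ± 0.15, SE, adjusted p = 0.0394). The conditions did not overlap at either gene, but after centring both changes were positive, at 0.06 and 0.19. The call at Malat1 was lost without uninduced replicate 1 (adjusted p = 0.0715 by limma). That at Neat1 was lost in 4 of the 6 fits that left out 1 library, each uninduced replicate and IAA replicate 3, with an adjusted p of up to 0.152 (without uninduced replicate 1).

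The other called members of this list were Trp53cor1 (lincRNA-p21, beside Cdkn1a), with a change of -0.50, a relative change of 0.06 and a call lost without uninduced replicate 2 (adjusted p = 0.0523), and 1700020I14Rik (Cyrano), with a change of -0.60 and a relative change of -0.05. Pvt1, beside Myc, carried the mark and had 1.76, 1.54 and 1.97 RPKM in the uninduced and 1.13, 1.37 and 1.26 RPKM in the IAA libraries, which did not overlap but missed the threshold (-0.45 ± 0.21, SE, adjusted p = 0.0574). The log2 changes at the 2 peaks of Lncpint, -0.42 and -0.26, missed it as well. At 2900097C17Rik (Norad) the log2 change was -0.50 with an adjusted p of 0.0806, and 94.6% of the words of its peak occur elsewhere in the genome. No peak of the imprinted and X-linked list (Xist, Tsix, Meg3, H19 and others) met the rule for a lincRNA promoter, so this group gave 0 values.

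The largest falls were found at lincRNAs with little known function. Gm29243 (chr8:34216039-34216367, upstream of the gene) had 1.70, 1.83 and 2.36 RPKM in the uninduced and 0.447, 0.676 and 0.792 RPKM in the IAA libraries (-1.50 ± 0.24, SE, adjusted p = 0.000207). This small peak held 22 reads in uninduced replicate 1 and 5 in IAA replicate 1, so counting error is large. Gm12510 (chr4:55464627-55465219, in an intron), whose nearest coding gene is the naive pluripotency factor Klf4 at 66551 bp, had 3.72, 3.04 and 3.66 RPKM in the uninduced and 1.53, 1.08 and 1.36 RPKM in the IAA libraries (-1.33 ± 0.19, SE, adjusted p = 6.45e-05). Its relative change of -0.78 was the largest of those that passed after centring (adjusted p = 0.0276). Another marked H3K27ac peak lies 433 bp away. The peak of 3222401L13Rik on chromosome 18, in an exon and 5842 bp from the start of Pcdhga1, changed by -1.25 ± 0.26 (SE, adjusted p = 0.00139).

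The 3 remaining relative falls lay at long peaks. AC116849.2 (chr19:56664116-56665937) had 4.97, 4.63 and 4.33 RPKM in the uninduced and 2.35, 2.27 and 1.73 RPKM in the IAA libraries. AV205837 (chr16:31325726-31328150) had 3.79, 3.63 and 3.90 RPKM in the uninduced and 1.80, 1.83 and 1.49 RPKM in the IAA libraries. Gm49024 (chr14:34659550-34662606) had 3.90, 3.89 and 3.65 RPKM in the uninduced and 2.04, 1.80 and 1.62 RPKM in the IAA libraries. Each ended below 50% of its uninduced mean, at 45.5%, 45.3% and 47.8%, and the relative changes were -0.56, -0.55 and -0.48 (adjusted p = 0.0203, 0.0351 and 0.0495 by limma).

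Among the unmarked promoters, Gm19705 on chromosome 1 fell most and lies in a stretch with several lincRNA promoter peaks, 44805 bp from the start of Zfp281. Its first peak (chr1:136669706-136670088, upstream of the gene) had 2.98, 2.40 and 2.37 RPKM in the uninduced and 1.07, 0.653 and 1.13 RPKM in the IAA libraries (-1.37 ± 0.22, SE, adjusted p = 0.000222). Its second peak, over the start and also unmarked, changed by -0.77, and the other, which is marked and lies farther into the gene, changed by -1.08. Platr22 lies in the same region, at chr1:136695376-136697029, with the smaller change of -0.51. Gm19705 is 1 of 3 genes with tested peaks both with and without a mark, and at the other two, Gm30717 and Gm5091, the log2 change of the unmarked peak was the more negative (-0.84 against -0.64, and -0.45 against -0.03 at Gm5091, where neither peak passed the threshold).

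Gm10479 (chr12:19292671-19292989, in an exon) had 1.51, 1.39 and 1.54 RPKM in the uninduced and 0.369, 0.610 and 0.635 RPKM in the IAA libraries (-1.34 ± 0.25, SE, adjusted p = 0.000597). Of its 32-base words, 88.9% occur more than once in the genome, so reads may have come from copies. Gm11211 had 2.04, 2.14 and 1.81 RPKM in the uninduced and 0.807, 1.06 and 0.856 RPKM in the IAA libraries, and 4732490B19Rik had 1.96, 1.58 and 1.66 RPKM in the uninduced and 0.962, 0.691 and 0.719 RPKM in the IAA libraries. Their log2 changes were -1.06 and -1.05. Gm11211 lies 4806 bp from a marked H3K27ac peak, whereas the nearest to 4732490B19Rik is 368125 bp away.

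The lincRNA promoter with the most H3K27ac signal did not fall. Gm26917 (chr17:39843036-39848802, over its exon) had 18.9, 22.3 and 18.6 RPKM in the uninduced and 22.1, 19.3 and 19.8 RPKM in the IAA libraries, which overlapped (0.03 ± 0.12, SE, adjusted p = 0.795). Its relative change of 0.59 passed after centring (adjusted p = 0.00331). RefSeq on GRCm38 places Rn18s-rs5, a pseudogene of the 18S ribosomal RNA, at 39846354 to 39848202 within this peak, and 14.2% of the 32-base words of the peak occur more than once in this assembly. The part of reads from other ribosomal DNA in this signal was not tested. Next in level were 1700096K18Rik, with 8.77, 8.5 and 8.34 RPKM in the uninduced and 6.74, 5.76 and 3.75 RPKM in the IAA libraries, Malat1, Neat1 and 4930461G14Rik, each of which was lower on the deposited scale. The other peaks with the highest changes were Gm42916 (0.10), 4933411E08Rik (0.07), Gm31138 (0.01) and Mir9-3hg (-0.01), none of which passed the threshold on either scale.

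The marked promoters held less GC and CpG than the unmarked ones. Over the whole peak, the median GC content was 48.7% with and 52.3% without a mark, and the observed over expected CpG ratio was 0.27 and 0.35. Coding promoters were richer in CpG, with ratios of 0.51 with and 0.68 without a mark, and distal peaks poorer, with ratios of 0.21 and 0.23. In the windows from 250 bases before to 50 bases after the start, the median GC content was 49.7% with and 53.0% without a mark, against 47.3% at all 5854 lincRNA genes.

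OCT4 binds the octamer ATGCAAAT, often beside a SOX2 site, and the join of the paired site was searched as TGTNATGCA, both on either strand. The patterns share the letters ATGCA, so a match to both can overlap. The octamer was found in the start window of 7 of 102 marked promoter peaks (6.86%, among them both peaks of Gm26803, which share 1 window) and 8 of 297 unmarked ones (2.69%), beside 1.95% of the windows of all 5854 lincRNA genes. In the whole peak, it was found in 10 marked (9.8%) and 14 unmarked promoters (4.71%), beside 6.32% and 1.86% at coding promoters and 6.1% and 2.52% at distal peaks. The join was found in the start window of 3 marked and 0 unmarked promoters, beside 0.888% of all windows. Over the whole peak, it was found in 3 marked (2.94%) and 9 unmarked promoters (3.03%). These counts are small, and peaks differ in length, so they are given as a description. A match does not show that OCT4 was bound there.

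**Figure D5:**
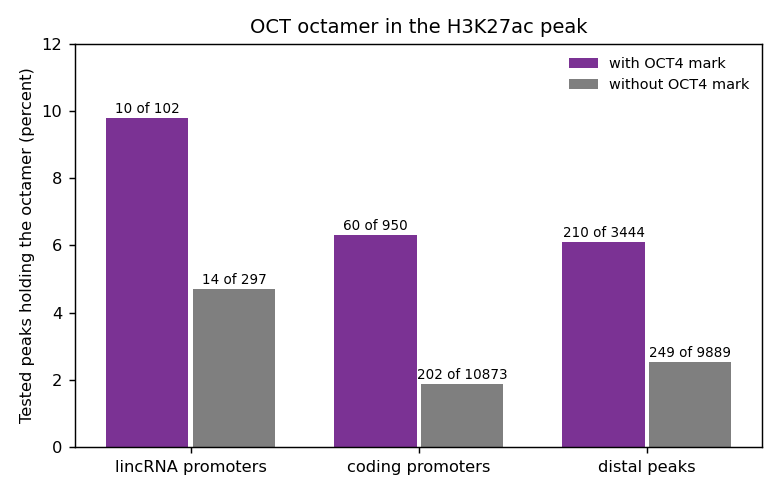
Percent of tested peaks that hold the octamer on either strand (vertical axis) at lincRNA promoters, coding promoters and distal peaks (horizontal axis), with (purple) and without (grey) an OCT4 mark. Numbers above the bars give peaks with the octamer of all peaks, and the marked bar is the taller in each class.

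The start windows of the 3 marked promoters with the largest falls among those with a motif are shown with the motif in capitals. Gm26803, with the octamer 122 bases before its start, lies at chr13:83729533-83729832 on the minus strand. Gm26576, with the join on the opposite strand 229 bases before its start, lies at chr10:66920052-66920351 on the plus strand, and C330002G04Rik, with the join 233 bases before its start, at chr19:23075804-23076103 on the minus strand. The Gm26803 window lies inside the peak over its start. The Gm26576 window lies outside its H3K27ac peak, and the join of C330002G04Rik lies beyond the end of its peak. These 3 promoters were chosen after their values were seen.
Gm26803: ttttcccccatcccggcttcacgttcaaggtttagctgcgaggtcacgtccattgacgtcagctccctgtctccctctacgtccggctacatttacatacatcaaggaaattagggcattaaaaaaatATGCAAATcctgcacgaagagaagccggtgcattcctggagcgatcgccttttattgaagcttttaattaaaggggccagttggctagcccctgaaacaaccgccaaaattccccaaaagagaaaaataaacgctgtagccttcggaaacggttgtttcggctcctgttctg
Gm26576: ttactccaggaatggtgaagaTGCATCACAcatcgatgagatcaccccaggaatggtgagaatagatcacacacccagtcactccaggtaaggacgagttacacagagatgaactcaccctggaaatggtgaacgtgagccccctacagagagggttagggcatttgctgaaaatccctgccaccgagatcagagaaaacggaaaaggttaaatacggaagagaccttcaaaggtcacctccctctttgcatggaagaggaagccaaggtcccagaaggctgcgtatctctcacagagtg
C330002G04Rik: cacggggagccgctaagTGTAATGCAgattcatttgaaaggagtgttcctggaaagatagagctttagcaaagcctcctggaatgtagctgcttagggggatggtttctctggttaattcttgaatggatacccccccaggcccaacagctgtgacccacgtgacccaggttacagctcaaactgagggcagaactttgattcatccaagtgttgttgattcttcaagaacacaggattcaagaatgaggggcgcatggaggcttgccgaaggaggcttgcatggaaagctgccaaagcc

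Gm26803 had 2.08, 1.64 and 1.79 RPKM in the uninduced and 0.936, 0.921 and 0.882 RPKM in the IAA libraries at the peak over its start (-0.93, adjusted p = 0.00227 by limma). At another marked peak upstream of its start the log2 change of -0.38 missed the threshold (adjusted p = 0.105). Gm26576 had 5.34, 5.17 and 5.19 RPKM in the uninduced and 2.74, 3.21 and 2.38 RPKM in the IAA libraries (-0.90, adjusted p = 0.000384), and C330002G04Rik had 4.37, 3.87 and 4.02 RPKM in the uninduced and 2.37, 2.18 and 2.06 RPKM in the IAA libraries (-0.86, adjusted p = 0.000536). At none of the 3 genes did the relative change pass. Over the 18 tested peaks whose start window held either motif, the change ran from -0.93 to -0.22.

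The 43 lincRNA promoter peaks below 0.5 RPKM, 5 of them with a mark, were not tested. In 42 of them (97.7%) over 50% of the 32-base words occur more than once in the genome. The same held for 99% of coding promoter peaks and 98.9% of distal peaks below the threshold, so it is not particular to lincRNA promoters. Among the 399 tested peaks it held for 22. Of these 22, 7 were lower, beside 68.2% of all tested peaks, with a median change of -0.52. That median is near the -0.55 of all tested peaks. The share lower among all mostly repeated tested peaks is not given here. In 22 of the 43, at least 1 library stood at 1 read, the lowest value in the files. The median log2(RPKM + 0.1) over the 43 was -2.19, -2.32 and -2.33 in the uninduced and -2.17, -2.48 and -2.42 in the IAA libraries, which overlapped.

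Values on each side of the rule's distances were as follows. They are set beside the 68.2% lower of all tested peaks. With the lincRNA start 0.5 to 1 kb from the peak, 29 of 43 tested peaks (67.4%) were lower with a median change of -0.60. Just outside the rule, with a start 1 to 2 kb away, 63 of 102 (61.8%) were lower with a median change of -0.57. With a coding start 5 to 10 kb away, 32 of 42 (76.2%) were lower with a median change of -0.55. Just outside, with a coding start between 1 and 5 kb away, 31 of 37 (83.8%) were lower with a median change of -0.56. These 37 had more H3K27ac in uninduced cells, with a median of 3.60 RPKM against 2.51 RPKM in the 42, and the part of that level was not tested. The median change was -0.55 over the 239 peaks that covered the start and -0.56 over the 160 with the start up to 1 kb away.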

How the data were processed

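H3K27ac was measured by ChIP-seq in 3 uninduced and 3 IAA libraries of O4AID ESCs. The authors aligned reads to GRCm38 with Bowtie 2 (version 2.3.4.3 in the submitters' processing notes), took out duplicate reads (SAMtools), pooled the uninduced libraries to call peaks (MACS2) and deposited RPKM per peak from DiffBind. The versions of these are not given in the sources used here. The pooled columns equal the mean of the 3 libraries. With peak length as end minus start, 100% of values correspond to whole reads (within 0.01), from which library sizes were recovered. Count models were not applied to RPKM. Input and spike-in libraries were not used here, and 0 per-sample columns were left unused.

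Peaks with at least 0.5 RPKM in either pooled column entered a two-sided limma fit (limma 3.58.1, R 4.3.3) of log2(RPKM + 0.1), in which eBayes used both its trend and robust options. Adjustment was by Benjamini-Hochberg over all 26457 peaks, with a threshold of 0.05. A change on this scale understates that of low peaks. On simulated data for this comparison over 26457 peaks, 63 of 200 peaks given a log2 change of 1 were called, with 0 false calls. Only these 200 peaks were changed, in both directions and with separate noise at each peak. In the data 68.2% of tested peaks were called lower, so the simulated counts do not give the rate of missed or false calls here. Medians over peaks are descriptions without a test, as peaks are not replicates. Gene starts and types came from GENCODE vM21, and sequence features from GRCm38. The lincRNA promoters and gene lists were chosen with earlier results of these data known. Promoters named are all those of the 4 lists, the 5 largest falls with and without a mark, the 5 highest changes, the 5 highest levels and all peaks called after centring. Alternatives covered the pseudocount, threshold, scaling, limma settings, replicate block, the rule for a lincRNA promoter and each library left out.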

Additional observations from a re-analysis of the deposited data

How the results depend on the processing

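Of the 6 uninduced and IAA libraries, uninduced replicate 1 mattered most for the count of lower lincRNA promoters, against 273 with all libraries. Leaving out 1 library gave 158 (uninduced replicate 1) to 292 (IAA replicate 1). Over all tested peaks, 39.2% and 74.1% were lower in these same fits, beside 68.2% with all libraries. With each library centred on its median tested peak, 6 lincRNA promoter peaks were lower and 1 higher, beside 1.97% and 0.544% of all tested peaks. In that run 51 lincRNA promoter peaks had no overlap in the lower direction. The change between conditions of the library medians was -0.011 over all lincRNA promoters, -0.17 with and 0.047 without an OCT4 mark and -0.29 for the ESC-linked list (whose median over peaks was -0.32). Quantile normalization gave 4 lower peaks (beside 1.69% of all tested peaks), 52 without overlap, and median changes of -0.011, -0.17, 0.046 and -0.27 in the same order. The shares of all tested peaks without overlap after centring or quantile normalization are not given here. The counts of 51 and 52 therefore do not set lincRNA promoters apart. Among the named promoters called lower, centring turned the direction at Platr22 (0.043), Platr4 (0.046), Trp53cor1 (0.058), Malat1 (0.061) and Neat1 (0.19). None of these relative changes passed, with an adjusted p by limma from 0.325 at Neat1 to 0.939 at Platr22. Another 7 named peaks, not called on the deposited scale, also went from negative to positive. With log2(RPKM + 0.5), the median change with a mark was -0.60. Without the RPKM threshold 1 lincRNA promoter peak was higher, beside 54 of all 31131 peaks. Restricting the rule to starts inside the peak left 168 lower peaks (70.3%) and 190 without overlap, of 239 peaks. Over all tested peaks, 68.2% were lower and 71.2% had no overlap. An adjusted p under 0.01, chosen after seeing the data, left 136 lower peaks, and the share of all tested peaks at that threshold is not given here.

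Same-numbered libraries did not deviate together from the means of their conditions (correlations -0.01, -0.09 and -0.06). Correlations of differently numbered libraries ran from -0.07 to 0.14. With 3 libraries in each condition, these values do not settle whether the libraries were made in pairs. With the replicate block, 274 lincRNA promoter peaks were lower and 0 higher, beside 71.4% lower of all tested peaks. With the replicate block and centred libraries, added after seeing the data, 2 were lower and 1 higher, beside 1.18% lower of all tested peaks. Among the named promoters, the block brought Mir670hg past the threshold. Without 1 library, calls were lost at Neat1 (each uninduced replicate, IAA replicate 3; largest adjusted p = 0.152), Platr22 (uninduced replicates 1 and 2, IAA replicate 3; 0.116), Eprn (uninduced replicates 1 and 3, IAA replicates 1 and 3; 0.105), Malat1 (uninduced replicate 1; 0.0715), Platr4 (uninduced replicate 1, IAA replicate 3; 0.0629), Trp53cor1 (uninduced replicate 2; 0.0523), Platr1 (uninduced replicate 1; 0.051) and 1 Snhg12 peak (uninduced replicate 1; 0.0506), all still negative. Without IAA replicate 1, Mir17hg (adjusted p = 0.0321) and 1 Lncpint peak (0.0141) passed. The differences of the lincRNA promoters from coding promoters and distal peaks, and of marked from unmarked, moved by less than the larger of the SDs of both conditions in each alternative run. Against the smaller SD this did not hold: the difference from distal peaks moved from 0.0083 to 0.038 when averaged within low and high peaks by RPKM (SD 0.01 in IAA), and marked minus unmarked from -0.21 to -0.27 without IAA replicate 3 (SD 0.04 in uninduced).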
